A study of Mus musculus with 28 samples.

Results

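The checkpoint receptor and exhaustion genes Pdcd1, Ctla4, Lag3, Havcr2, Tigit, Tox, Cd160, Btla and Cd244a were followed across all treatments of a chemotherapy and immune checkpoint blockade (ICB) experiment in mouse mesothelioma. They were taken by symbol, and all 9 were found among the 55341 gene names of the count matrices. Tumors were subcutaneous AB1-HA grafts, a BALB/c mesothelioma line carrying influenza hemagglutinin, grown in BALB/c mice, and RNA was measured in 28 whole tumors, each from another mouse, collected 7 days after the start of treatment. The groups were PBS (n = 4), ICB (n = 5), 5-FU (n = 5), Cisplatin (n = 4), 5-FU+ICB (n = 5) and Cisplatin+ICB (n = 5). ICB was 100 µg anti-CTLA-4 given once with 100 µg anti-PD-L1 given 3 times, the chemotherapy doses were 75 mg/kg for 5-FU and 6 mg/kg for cisplatin, and the PBS mice received neither drug. All mice carried the same tumor line and none carried a genetic modification named in the labels. The question was whether the receptors and the exhaustion regulator changed with treatment, and whether they changed more or less than the T cell receptor chain Cd3e. Because whole tumors were sequenced, more T cells and more RNA of a gene per T cell cannot be told apart.

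Checkpoint receptors are surface proteins that T cells put up after activation and that dampen signalling when they meet their ligands. Under lasting antigen, several of them stay on together, a state called exhaustion, which depends on the nuclear factor TOX. PD-1 (Pdcd1) binds PD-L1 and PD-L2, CTLA-4 (Ctla4) competes with CD28 for CD80 and CD86 and is abundant on regulatory T cells, LAG-3 (Lag3) binds MHC class II among other ligands, TIM-3 (Havcr2) is also made by macrophages and dendritic cells, and TIGIT (Tigit) binds the poliovirus receptor. BTLA (Btla) and CD160 (Cd160) share the ligand HVEM. BTLA is strongly expressed by B cells, CD160 by NK cells and cytotoxic T cells, and 2B4 (Cd244a), the receptor for CD48, by NK cells, cytotoxic T cells and some myeloid cells.

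In GRCm38, Ctla4 (ENSMUSG00000026011.13) lies at chr1:60887000-60915832 on the plus strand, Pdcd1 (ENSMUSG00000026285.7) at chr1:94038305-94052553 on the minus strand and Cd3e (ENSMUSG00000032093.7) at chr9:44998740-45009627 on the minus strand. Promoters of 7 of the 9 members were found in the RefSeq table for GRCm38.p6, each from 250 bases before to 50 bases after the start that the table uses, which for Ctla4 lies 22025 bases inside the span given above, at the start of another of its annotated transcripts. The 3 shown belong to Pdcd1, whose level relative to Cd3e did not pass a test under ICB, to Ctla4, which was lower relative to Cd3e there, and to Cd3e itself, at chr1:94052504-94052803 (minus strand), chr1:60908775-60909074 (plus strand) and chr9:45009562-45009861 (minus strand). Capitals mark matches to the core of the NFAT motif, GGAAA or, on the other strand, TTTCC, the family of factors that T cell receptor signalling brings to the nucleus.
Pdcd1: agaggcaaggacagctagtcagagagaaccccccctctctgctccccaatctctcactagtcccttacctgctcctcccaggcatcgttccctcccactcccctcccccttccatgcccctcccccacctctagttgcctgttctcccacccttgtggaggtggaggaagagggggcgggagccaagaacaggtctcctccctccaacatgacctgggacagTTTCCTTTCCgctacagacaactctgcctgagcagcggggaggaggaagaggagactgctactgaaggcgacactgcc
Ctla4: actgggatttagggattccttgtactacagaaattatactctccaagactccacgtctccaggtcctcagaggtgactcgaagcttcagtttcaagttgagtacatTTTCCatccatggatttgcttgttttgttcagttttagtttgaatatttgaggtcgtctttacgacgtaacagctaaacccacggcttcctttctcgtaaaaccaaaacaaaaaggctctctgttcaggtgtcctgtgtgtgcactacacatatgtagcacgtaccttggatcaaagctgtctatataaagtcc
Cd3e: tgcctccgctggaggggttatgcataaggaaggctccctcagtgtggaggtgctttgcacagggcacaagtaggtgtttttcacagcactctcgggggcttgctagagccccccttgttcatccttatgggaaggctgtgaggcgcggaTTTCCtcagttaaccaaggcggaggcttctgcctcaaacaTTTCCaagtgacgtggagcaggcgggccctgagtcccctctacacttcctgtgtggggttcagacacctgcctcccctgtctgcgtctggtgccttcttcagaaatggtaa
Pdcd1 held 2 matches, 28 and 23 bases before the start, Ctla4 held 1 match, 144 bases before it, and Cd3e held 2, at 101 and 61 bases before it. These letters are common: 61.3% of 32851 promoters held them on either strand. An AP-1 motif (TGANTCA) was found for Havcr2 and Cd244a and in 7.81% of all promoters, and a RUNX motif (TGTGGT or, on the other strand, ACCACA) for Havcr2, Tigit, Btla and Cd160 and in 16.8%. The matches were not tested against the expression values.

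Total counts per tumor ran from 23541485 to 33950555, and levels are given as CPM, counts scaled to library size after TMM normalization, in which 3 counts corresponded to 0.0822 to 0.159 CPM. All 9 members passed the filter on low counts in every fit. A gene was called when edgeR's quasi-likelihood test gave a Benjamini-Hochberg adjusted p below 0.05 over all genes tested and an absolute log2 fold change above 0.5. T cell transcripts were present in all groups: the summed level of 10 T cell markers ranged from 45.3 to 79.8 CPM in PBS tumors, 180 to 638 CPM under ICB, 58.4 to 473 CPM under 5-FU, 80.7 to 1506 CPM under 5-FU+ICB, 34.5 to 92.7 CPM under Cisplatin and 77.0 to 406 CPM under Cisplatin+ICB. The tumor marker Msln was detected in every tumor, and Upk3b, another mesothelial marker, was at or under 3 counts in every group. Summed mesothelial markers had medians of 308 CPM in PBS and 281 CPM in Cisplatin tumors, but of 96.1 CPM under ICB, 118 CPM under 5-FU, 56.2 CPM under 5-FU+ICB and 148 CPM under Cisplatin+ICB, so that this sum was lower in the groups with the higher T cell marker levels. In Cisplatin+ICB replicate 1 Msln held 654 of the 655 CPM of the sum, and the direction of each marker is not given here. The part of tumor cell RNA in the fold changes was not tested. The mitochondrial share of counts also moved with treatment, from 1.53% to 2.37% in PBS tumors to 2.69% to 4.82% under ICB. Some tumors stood apart from their group. Cisplatin+ICB replicate 1 had Cd3e at 1.80 CPM and Foxp3 at 0.424 CPM beside Msln at 654 CPM. In 5-FU replicate 3 mitochondrial genes held 6.80% of the counts, and the other 5-FU tumors were at or under 3.40%. In 5-FU+ICB replicate 5 they held 16.1%, and the B cell genes Cd79a (287 CPM) and Ms4a1 (218 CPM) were high while Msln was at 0.50 CPM. 5-FU+ICB replicate 2 had Cd3e at 6.76 CPM and Cd8a at 11.4 CPM, the lowest of that group.

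Pdcd1 and Tox, the receptor PD-1 and the regulator of exhaustion, had the largest fold changes against PBS under ICB, 5-FU, 5-FU+ICB and Cisplatin+ICB. Pdcd1 stood at 2.96, 9.02, 3.98 and 3.12 CPM in the PBS tumors and at 47.9, 50.9, 137, 41.6 and 87.3 CPM in the ICB tumors, so that the groups were fully apart. Under 5-FU+ICB it was 266, 4.78, 73.2, 80.8 and 165 CPM. Of these 5 tumors, 4 lay at or above 73.2 CPM and replicate 2 lay within the PBS range. With Cisplatin+ICB the Pdcd1 values were 12.7, 36.5, 7.19, 53.5 and 94.2 CPM, of which replicate 3 alone fell within the PBS range. 5-FU gave 7.78, 22.0, 63.0, 3.67 and 22.3 CPM and Cisplatin 6.87, 2.25, 2.55 and 8.86 CPM. The cisplatin tumors thus overlapped the PBS tumors, and replicate 3 stood highest of the 5-FU tumors.

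Tox was scarce in PBS tumors, at 0.771, 0.610, 1.12 and 1.46 CPM, and in Cisplatin tumors, at 1.91, 0.495, 0.939 and 1.51 CPM. In 5-FU tumors it was 3.59, 4.06, 15.2, 1.83 and 7.17 CPM, each above every PBS tumor. ICB tumors held 7.94, 5.26, 23.7, 5.42 and 12.7 CPM of Tox, 5-FU+ICB tumors 34.2, 1.43, 12.9, 13.6 and 47.5 CPM and Cisplatin+ICB tumors 0.318, 4.40, 1.00, 8.66 and 18.9 CPM. Cisplatin+ICB replicate 1 had the lowest Tox level of all 28 tumors, while its Pdcd1 was above every PBS tumor.

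Lag3 followed a like order. It was 7.14, 5.22, 6.07 and 8.21 CPM in PBS tumors and 38.3, 54.5, 124, 52.9 and 76.9 CPM under ICB, with no overlap. Under 5-FU+ICB it was 95.4, 5.92, 60.9, 36.1 and 91.8 CPM, under Cisplatin+ICB 2.70, 29.0, 7.87, 36.2 and 42.3 CPM, under 5-FU 8.47, 13.0, 67.5, 6.05 and 18.9 CPM and under Cisplatin 6.37, 4.08, 3.52 and 5.45 CPM. ICB alone held the highest mean log2 CPM of Lag3, 5.99 ± 0.64 (SD, n = 5), above 5-FU+ICB at 5.36 ± 1.65 (SD, n = 5), but the groups overlapped.

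Ctla4, the target of the anti-CTLA-4 antibody, moved over a narrower range and in another order. PBS tumors held 2.35, 7.25, 2.86 and 2.33 CPM, with replicate 2 apart from the other 3, and ICB tumors 5.79, 10.0, 12.5, 5.73 and 10.3 CPM. 5-FU tumors reached 7.59, 11.0, 17.9, 5.50 and 17.9 CPM without the antibody, which overlapped the 5-FU+ICB tumors at 28.4, 2.57, 10.3, 11.6 and 23 CPM. Cisplatin tumors held 5.94, 4.00, 2.48 and 8.09 CPM of Ctla4 and Cisplatin+ICB tumors 12.1, 6.15, 4.77, 6.25 and 12.9 CPM. The mean log2 CPM under 5-FU, 3.44 ± 0.75 (SD, n = 5), was above that under ICB, 3.09 ± 0.51 (SD, n = 5), a difference smaller than the spread of the 5-FU tumors. Foxp3 ranged from 1.46 to 5.12 CPM in PBS tumors, 5.51 to 15.8 CPM under ICB and 7.23 to 24.4 CPM under 5-FU. Cisplatin+ICB replicate 1 held more Ctla4 than 3 of the other 4 tumors of its group although its Cd3e was the lowest of the group.

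Havcr2 and Cd244a were the most even members within groups. Havcr2 was 9.41, 11.6, 11.2 and 10.9 CPM in PBS tumors, 39.6, 52.8, 59.6, 31.2 and 47.5 CPM under ICB, and 48.2, 9.98, 33.4, 33.0 and 36.3 CPM under 5-FU+ICB. In Cisplatin+ICB tumors it was 14.0, 34.5, 23.5, 55.7 and 45.5 CPM, so that no tumor of that group fell into the PBS range, whereas 5-FU tumors (15.4, 17.4, 25.4, 9.87 and 18.4 CPM) and Cisplatin tumors (22.1, 11.4, 11.2 and 19.8 CPM) reached it. Summed markers of macrophages, which also make Havcr2, had a median of 1163 CPM in PBS tumors, 4044 CPM under ICB, 2906 CPM under 5-FU+ICB, 2013 CPM under Cisplatin+ICB, 1614 CPM under 5-FU and 1141 CPM under Cisplatin. Those of dendritic cells had medians of 24.0, 283, 301, 82.7, 53.1 and 26.9 CPM in the same order. The part of these cells in the Havcr2 levels was not tested.

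Btla ranged from 2.49 to 4.92 CPM in PBS tumors, 2.10 to 8.53 CPM under ICB, 3.19 to 8.59 CPM under Cisplatin and 3.38 to 6.54 CPM under Cisplatin+ICB, all of which overlapped. 5-FU tumors held 3.70, 3.95, 12.6, 2.96 and 7.78 CPM of Btla, and the 5-FU+ICB tumors 9.87, 1.77, 7.50, 7.30 and 67.9 CPM. The value of 67.9 CPM belonged to replicate 5, the tumor with high B cell genes. Summed B cell markers were 770 CPM in that tumor, and their median over the group was 29.4 CPM, against 13.6 to 17.3 CPM in PBS tumors. Their part in the Btla values was not tested.

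Tigit, Cd160 and Cd244a covered narrower ranges than Pdcd1. Tigit ranged from 4.31 to 5.96 CPM in PBS tumors, 9.54 to 27.4 CPM under ICB, 3.76 to 22.1 CPM under 5-FU, 5.80 to 44.1 CPM under 5-FU+ICB, 3.66 to 5.80 CPM under Cisplatin and 2.39 to 24.0 CPM under Cisplatin+ICB. Cd160 ranged from 0.976 to 2.54 CPM in PBS tumors and from 3.20 to 8.09 CPM under ICB, and Cd244a from 1.66 to 4.54 CPM and from 4.23 to 9.03 CPM. Summed NK cell markers, of which Klra8 was at or under 3 counts in every group, ranged from 12.8 to 27.9 CPM in PBS tumors and from 25.7 to 52.3 CPM under ICB, and their part in the Cd160 and Cd244a levels was not tested. Ranked by mean log2 CPM, PBS or Cisplatin held the lowest place for every member and the other of the 2 the next. The highest place belonged to 5-FU+ICB for Pdcd1, Ctla4, Tigit, Tox and Btla and to ICB for Lag3, Havcr2, Cd160 and Cd244a, and in every one of these orders neighbouring groups overlapped.

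**Figure D1:**
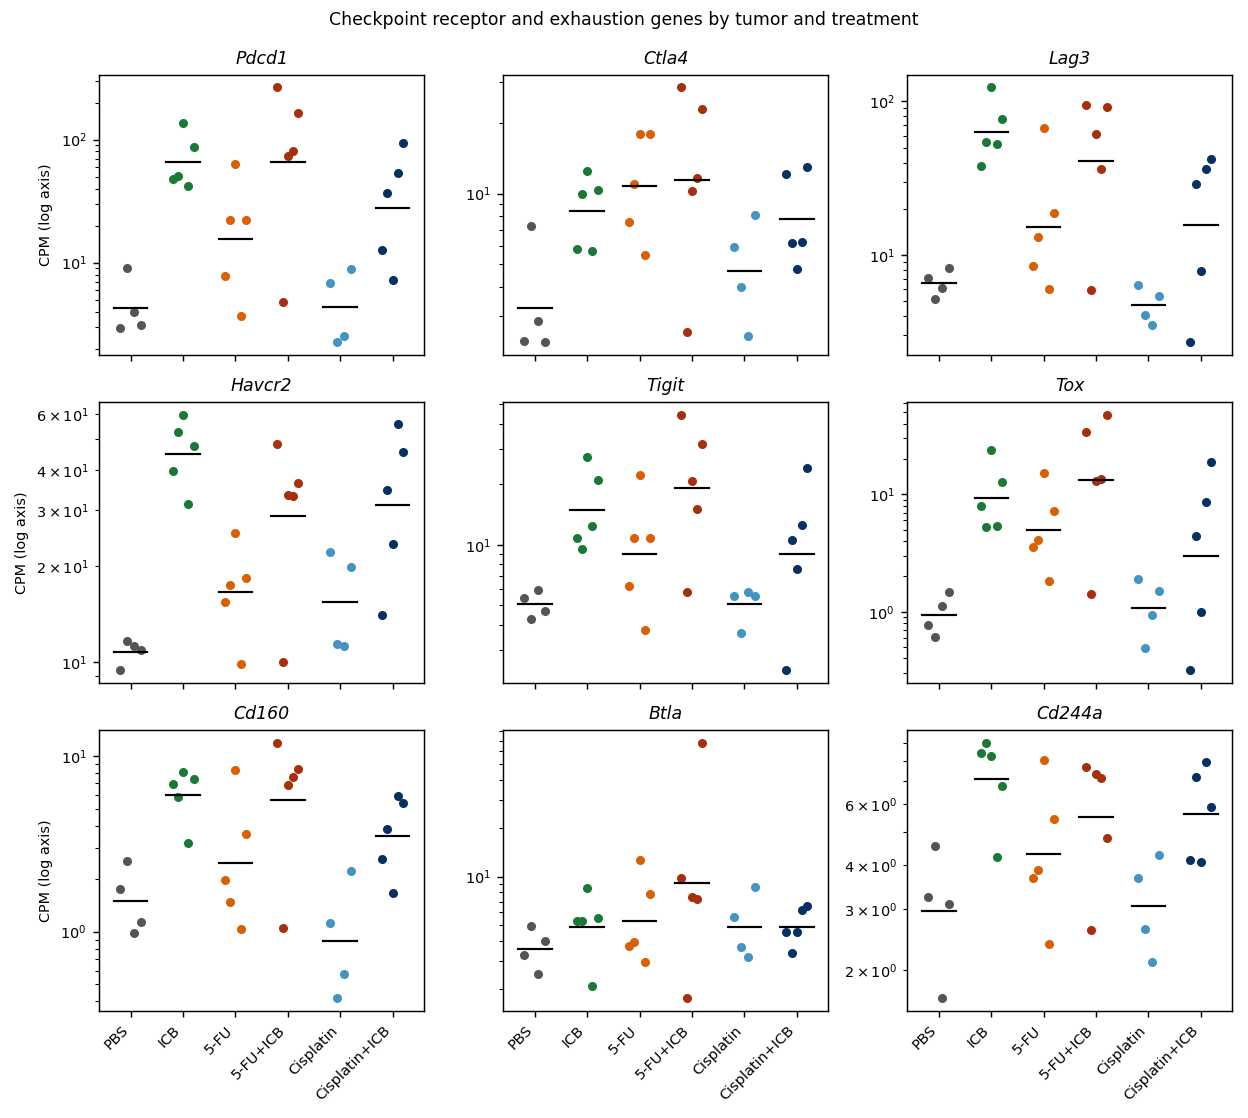
Level of each member in CPM (log axis) by treatment, with 1 point per tumor in replicate order and a bar at the mean of the log values. Pdcd1, Lag3 and Tox of all 5 ICB tumors lie above every PBS tumor, while Btla overlaps between these groups and reaches 67.9 CPM in 1 tumor under 5-FU+ICB.

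ICB alone raised 7 of the 9 members against PBS, where 37.8% of 17916 genes were called. Pdcd1 rose most, with a log2 fold change of 3.93 (SE 0.94, adjusted p = 0.00367), or 15.2-fold, followed by Tox at 3.50 (SE 0.83, adjusted p = 0.00367) and Lag3 at 3.40 (SE 0.76, adjusted p = 0.00251). Havcr2 rose by 2.12 (SE 0.35, adjusted p = 0.000481), Cd160 by 1.97 (adjusted p = 0.0204), Tigit by 1.69 (adjusted p = 0.0170) and Cd244a by 1.24 (adjusted p = 0.0209) on the log2 scale. Cd3e rose by 3.51 (SE 0.72, adjusted p = 0.00156), close to Tox and Lag3. Ctla4, at 1.26 (SE 0.57, adjusted p = 0.0818), and Btla, at 0.56 (SE 0.75, adjusted p = 0.561), did not pass. The same 9 tumors fitted with the cisplatin groups gave 8 called members, Ctla4 included (adjusted p = 0.0410), where 26.2% of 17819 genes were called. For 6 members the ICB tumors lay wholly above the PBS tumors, as they did in either direction for 37.4% of genes. The median log2 fold change of the members was 1.97, against -0.03 over all genes. The same 4 PBS tumors serve every comparison against PBS, so these comparisons are not independent of each other.

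5-FU alone raised Tox and Ctla4, 2 of the 9 members, where 23% of genes were called, so that the count was at the share of all genes. The log2 fold change of Tox was 2.71 (SE 0.81, adjusted p = 0.0228), or 6.54-fold, and that of Ctla4 was 1.68 (SE 0.57, adjusted p = 0.0393). Pdcd1, at 2.31 (SE 0.87, adjusted p = 0.0579), and Lag3, at 1.79 (SE 0.71, adjusted p = 0.0683), fell short of the threshold, as did Tigit (1.09), Cd160 (1.03), Btla (0.76), Havcr2 (0.70) and Cd244a (0.57). Tox was the only member whose 5-FU tumors were all above the PBS tumors, and 27% of genes were apart in this way. The count depended on single tumors and on the fit. Fitted with all 6 groups together no member was called, where 4.45% of genes were, and the same held without 5-FU replicate 3 (16.5% of genes) or without PBS replicate 1 (10.5%), while 4 were called without 5-FU replicate 4 (19.9%).

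5-FU+ICB raised 8 of 9 members against PBS, where 40.7% of genes were called. The log2 fold changes were 4.63 for Pdcd1 (SE 0.97, adjusted p = 0.00187), 4.51 for Tox (SE 0.87, adjusted p = 0.00127), 3.15 for Lag3 (SE 0.75, adjusted p = 0.00365), 2.39 for Btla (SE 0.79, adjusted p = 0.0219), 2.23 for Tigit (SE 0.54, adjusted p = 0.0040), 2.17 for Cd160 (SE 0.65, adjusted p = 0.0123), 2.03 for Ctla4 (SE 0.58, adjusted p = 0.00993) and 1.61 for Havcr2 (SE 0.35, adjusted p = 0.00215). Cd244a, at 0.92 (SE 0.40, adjusted p = 0.0674), did not pass. Because replicate 2 lay near the PBS tumors, no member separated the groups completely, against 25.5% of genes. Without replicate 5, the log2 fold change of Btla was 0.87 (adjusted p = 0.194) and 7 members were called, so that the Btla call rests on that tumor. Leaving out the PBS and 5-FU+ICB tumors one at a time, Btla was called in 6 of 9 fits.

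Cisplatin alone left 0 of 9 members called by edgeR or DESeq2, and 0 members had an unadjusted p below 0.05, where 0% of 17819 genes were called by edgeR, 4 genes by DESeq2, and 1.78% had such an unadjusted p. The log2 fold changes ran from -0.55 for Cd160 (SE 0.51) to 0.59 for Havcr2 (SE 0.35), with Pdcd1 at 0.11 (SE 0.68) and Tox at 0.30 (SE 0.86). No member had groups apart, against 3.44% of genes. The standard errors ran from 0.34 for Cd244a to 0.86 for Tox, and that set how small a change could be seen.

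Cisplatin+ICB raised Pdcd1 and Havcr2 against PBS, where 6.1% of genes were called. The log2 fold change was 3.11 (SE 0.71, adjusted p = 0.0218) for Pdcd1 and 1.70 (SE 0.34, adjusted p = 0.0153) for Havcr2, and the groups were apart for Havcr2 only, against 8.12% of genes. Tox (2.76, SE 0.86, adjusted p = 0.0641), Lag3 (1.84, SE 0.58, adjusted p = 0.0632), Cd160 (1.30, adjusted p = 0.114), Ctla4 (1.2, adjusted p = 0.106), Tigit (1.18, adjusted p = 0.131), Cd244a (0.91, adjusted p = 0.0950) and Btla (0.47, adjusted p = 0.497) did not pass. Without replicate 1, the tumor low in Cd3e, 7 members were called, where the share of all genes called was 35.3%. Without PBS replicate 1, 3 or 4 there were 0 members, and also 0% of all genes.

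**Figure D2:**
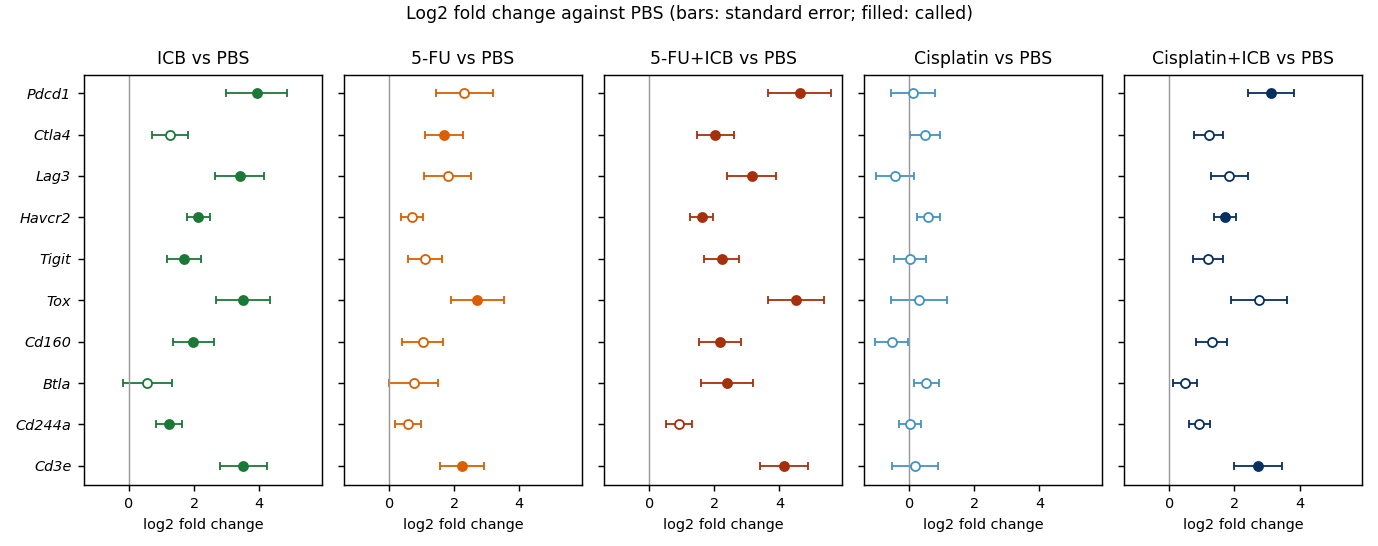
Log2 fold change of each member and of Cd3e against PBS by edgeR, 1 panel per treatment, with bars of 1 standard error. Filled points were called, and in the ICB panel Pdcd1, Tox and Lag3 lie near Cd3e, and Ctla4 and Btla are the open points.

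No member passed edgeR's test where a chemotherapy was added to ICB. Between 5-FU+ICB and ICB 0 of 9 were called, where 0.229% of genes were, with 0 by DESeq2 (327 genes in all) and 1 member at an unadjusted p below 0.05, as were 10.9% of all genes. That member was Btla, at 1.83 (SE 0.71, adjusted p = 0.348), which was 0.31 (adjusted p = 0.918) without replicate 5. Tox was at 1.01 (SE 0.68), Ctla4 at 0.78 (SE 0.52), Pdcd1 at 0.70 (SE 0.75), Tigit at 0.54 (SE 0.47), Cd160 at 0.20 (SE 0.56), Lag3 at -0.25 (SE 0.63), Cd244a at -0.31 (SE 0.37) and Havcr2 at -0.52 (SE 0.31). Leaving out 1 tumor, Tox ranged from 0.50 without 5-FU+ICB replicate 5 to 1.5 without ICB replicate 3, Ctla4 from 0.44 to 1.05, Pdcd1 from 0.18 without 5-FU+ICB replicate 1 to 1.06 without ICB replicate 3, and Tigit from 0.19 to 0.81 between the same fits as Pdcd1. Lag3 ranged from -0.48 to 0.06 and Cd160 from -0.05 to 0.48, so that their direction rested on single tumors, Lag3 turning above 0 without ICB replicate 3 and Cd160 below 0 without 5-FU+ICB replicate 1. Between Cisplatin+ICB and ICB 0 of 9 were called by edgeR and by DESeq2, where 0% of genes were called by edgeR, and the lowest value, for Lag3, was -1.55 (SE 0.52, unadjusted p = 0.00875, adjusted p = 0.291), the 1 member with an unadjusted p below 0.05, beside 15.9% of all genes. All 9 values were below 0 in that comparison, and without ICB replicate 3 Ctla4 (0.09) and Btla (0.15) were above 0.

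Adding ICB to a chemotherapy gave values above 0 for most members without a call. Between 5-FU+ICB and 5-FU 0 of 9 passed edgeR's test, where 0.0112% of genes did, 6 had an unadjusted p below 0.05, as did 16.6% of all genes, and DESeq2 called 1, Pdcd1. The edgeR log2 fold change of Pdcd1 was 2.32 (SE 0.79, adjusted p = 0.176) and that of Ctla4 was 0.35 (SE 0.51, adjusted p = 0.717). DESeq2 called 539 genes in all. Without 5-FU+ICB replicate 2, 4 members and 10.9% of all genes were called, and without 5-FU replicate 3, 2 members and 3.58% of genes were. Between Cisplatin+ICB and Cisplatin 0 of 9 passed edgeR's test, where 0% of genes did, 7 had an unadjusted p below 0.05, as did 14.2% of all genes, and DESeq2 called 5. Pdcd1 was at 3.00 (SE 0.70, adjusted p = 0.0791), Tox at 2.46 (SE 0.85, adjusted p = 0.185), Lag3 at 2.29 (SE 0.59, adjusted p = 0.0899) and Cd160 at 1.84 (SE 0.50, adjusted p = 0.104), while Btla was at -0.05 (SE 0.36). DESeq2 called 783 genes in all. Without Cisplatin+ICB replicate 1, 6 members and 11.9% of all genes passed edgeR's test, and without replicate 3, 3 members and 3.04% of genes did.

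Set against each other, the chemotherapies gave 0 called members by edgeR, where 0.362% of 18521 genes were called. The values for 5-FU minus Cisplatin were 2.38 (SE 0.90, adjusted p = 0.207) for Tox, 2.23 (SE 0.74, adjusted p = 0.157) for Lag3 and 2.2 (SE 0.86, adjusted p = 0.221) for Pdcd1. In all, 5 members had an unadjusted p below 0.05, beside 15.5% of all genes, and DESeq2 called 1, Lag3, which edgeR also called without Cisplatin+ICB replicate 1. Between the combinations 0 of 9 were called, where 0.297% of genes were, with 1 by DESeq2 and 3 at an unadjusted p below 0.05, near the 25.7% of all genes. That 1 was Btla, at 1.90 (SE 0.62, adjusted p = 0.0886) by edgeR and at 0.39 (adjusted p = 0.641) without 5-FU+ICB replicate 5. DESeq2 called 1620 of all genes in that comparison and 663 between 5-FU and Cisplatin, and without Cisplatin+ICB replicate 1 edgeR called 6.64% of genes in the latter.

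The interaction, the change with the combination beyond the sum of the separate changes on the log2 scale, was called for 0 of 9 members with 5-FU by edgeR and DESeq2, where edgeR called 0.0893% of genes and DESeq2 1542 genes. Havcr2 (-1.21, SE 0.46, adjusted p = 0.122) and Lag3 (-2.04, SE 0.94, adjusted p = 0.194) were the 2 with an unadjusted p below 0.05, a count at the share of all genes (23.9%), and 8 of the 9 values were below 0, Btla being the exception at 1.07 (SE 1.02), which was -0.46 without 5-FU+ICB replicate 5. With cisplatin 0 of 9 were called by either tool, where edgeR called 0% of genes, Havcr2 (-1.0, SE 0.46, adjusted p = 0.564) was the 1 member with an unadjusted p below 0.05, beside 7.14% of all genes, and all 9 values were below 0. In each fit Cd3e was below 0 as well, at -1.61 (SE 0.88) and -0.96 (SE 0.95).

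Measured against Cd3e in the same tumor, the members split. The quantity used was log2 CPM of the member minus log2 CPM of Cd3e, and its differences between groups do not depend on gene length. Each was tested with a two-sided exact permutation test, 99 tests in all, whose p-values are not adjusted and cannot go below 0.00794 (0.0286 for Cisplatin against PBS). Since Cd3e itself moved, most genes fall relative to it wherever it rose, and the share of all genes that passed stands beside each count.

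Under ICB, 6 members were lower relative to Cd3e than in PBS tumors, where 95.4% of 18520 genes passed, with a median difference of -3.39. Btla differed by -2.87, Cd244a by -2.08, Ctla4 by -1.98, Tigit by -1.78, Cd160 by -1.37 and Havcr2 by -1.27, each with an exact p of 0.00794, and no ICB tumor overlapped a PBS tumor. For Pdcd1, Lag3 and Tox no difference from the change of Cd3e passed. The Pdcd1 difference was 0.59 (PBS 0.19 ± 0.54, n = 4, and ICB 0.77 ± 0.27, n = 5, mean ± SD, exact p = 0.0952), that of Lag3 was -0.07 (exact p = 0.810) and that of Tox was -0.12 (exact p = 0.690). The other 9 of the 10 T cell markers, treated in the same way, differed by -1.52 for Lck to 0.36 for Cd3g, with 5 of them lower and 1 higher. The T cell subset genes also differed, Cd8a (0.97, exact p = 0.00794) and Cd8b1 (0.41, exact p = 0.0159) being higher and Cd4 (-1.10, exact p = 0.0159) lower relative to Cd3e, and their part in the members' values was not tested. Against the pan-leukocyte gene Ptprc in place of Cd3e, the ICB difference of Havcr2 was 0.10 (exact p = 0.413) and that of Tigit -0.41 (exact p = 0.294), that of Ctla4 -0.61 (exact p = 0.0635), whereas Btla (-1.51, exact p = 0.00794) and Cd244a (-0.72, exact p = 0.0317) stayed lower. Cd160 was at 9e-04 (exact p = 0.992). Pdcd1 (1.96, exact p = 0.00794), Lag3 (1.30, exact p = 0.00794) and Tox (1.25, exact p = 0.0397) were higher relative to Ptprc, and 81.9% of all genes passed. With limma over all genes, the differences of Havcr2 (adjusted p = 0.0815) and Cd160 (adjusted p = 0.0588) from Cd3e did not pass, and those of the other 4 did, beside 92% of all genes.

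Under 5-FU, 5 members were lower relative to Cd3e than in PBS, where 66.1% of genes passed. They were Cd244a (-1.32, exact p = 0.0238), Btla (-1.28, exact p = 0.0159), Havcr2 (-1.23, exact p = 0.0159), Cd160 (-1.14, exact p = 0.00794) and Tigit (-1.02, exact p = 0.00794). Ctla4, in contrast to its place under ICB, differed by only -0.15 (exact p = 0.770), with Pdcd1 at -0.01 (exact p = 0.976) and Tox at 0.46 (exact p = 0.0952). Lag3, at -0.63 (exact p = 0.0556), did not pass. Against Ptprc, where 46.5% of genes passed, Btla (-0.37, exact p = 0.0397) was the 1 of these 5 that stayed lower, and Tox was higher (1.37, exact p = 0.00794). With limma over all genes, 0 of these 5 and 0% of all genes passed.

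Under 5-FU+ICB 7 members were lower relative to Cd3e than in PBS, where 91.2% of genes passed. The 7 were Cd244a (-2.72), Btla (-2.24), Havcr2 (-2.19), Ctla4 (-1.81), Cd160 (-1.73), Tigit (-1.70) and Lag3 (-0.98), with exact p from 0.00794 to 0.0238, while Pdcd1 was at 0.32 (exact p = 0.421) and Tox at 0.13 (exact p = 0.746). Against Ptprc, where 67.1% of all genes passed, only Cd244a (-1.01) and Havcr2 (-0.48) of these 7 were lower, each with an exact p of 0.0317. Btla (-0.53, exact p = 0.365), Ctla4 (-0.10, exact p = 0.762), Cd160 (-0.02, exact p = 0.960), Tigit (0.0075, exact p = 0.976) and Lag3 (0.73, exact p = 0.111) did not pass, and Pdcd1 (2.04) and Tox (1.84) were higher, each with an exact p of 0.0317. With limma 6 of the 7 passed, Lag3 being the exception (adjusted p = 0.132), beside 92.3% of all genes. Compared with 5-FU alone, 3 members were lower, where 6.1% of genes passed. Ctla4 relative to Cd3e stood at -0.34 ± 0.54 (SD, n = 5) under 5-FU and at -2.00 ± 0.37 (SD, n = 5) under 5-FU+ICB, without overlap (difference -1.66, exact p = 0.00794), and against Ptprc it was lower as well (-0.86, exact p = 0.0317). With limma over all genes it did not pass (adjusted p = 0.103), and 0.0054% of genes did. Foxp3, which marks the regulatory T cells where CTLA-4 is abundant, was lower relative to Cd3e under ICB than in PBS (-1.79, exact p = 0.0238), at 0.17 under 5-FU (exact p = 0.786) and at -1.16 between 5-FU+ICB and 5-FU (exact p = 0.0714), the same order as Ctla4, and its part in the Ctla4 values was not tested. The other 2, Cd160 (-0.59) and Cd244a (-1.41), each had an exact p of 0.0476, and neither passed with limma (adjusted p = 0.389 and 0.105) or against Ptprc, where Cd160 was at 0.22 (exact p = 0.50) and Cd244a at -0.60 (exact p = 0.0556). Compared with ICB alone, Lag3 was the 1 member that differed, by -0.91 (exact p = 0.0159), where 1.74% of genes passed, and against Ptprc it was at -0.57 (exact p = 0.198). With limma it did not pass. Against Ptprc, where 5.6% of genes passed, Havcr2 was lower than under ICB (-0.58, exact p = 0.00794). Btla (0.97, exact p = 0.0159) and Ctla4 (0.51, exact p = 0.0238) were higher there.

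In Cisplatin tumors 0 of 9 members differed from PBS relative to Cd3e, where 0.599% of genes passed. For Cisplatin+ICB the count was 0 against PBS, where 13.2% of genes passed, 0 against Cisplatin, where 8.21% did, and 1 against ICB, where 2.49% did. That 1 was Lag3, lower by 0.62 (ICB 0.73 ± 0.46 and Cisplatin+ICB 0.12 ± 0.32, SD, n = 5 each, exact p = 0.0238), which did not pass with limma (adjusted p = 0.360) and against Ptprc was -1.32 (exact p = 0.00794). Replicate 1 of Cisplatin+ICB set the spread: with Ctla4 at 2.71 above Cd3e on the log2 scale against -2.64 to -0.51 in the other 4 tumors, the SD of Ctla4 was 2.16. Without it 2 members passed against PBS, where 61.1% of genes did, and 2 against Cisplatin, where 22.2% did. Relative to Ptprc, with all tumors, Pdcd1 was higher under Cisplatin+ICB than in PBS (1.42, exact p = 0.0476), where 40.1% of genes passed. Compared with Cisplatin, where 19.4% passed, Pdcd1 (1.64, exact p = 0.0238) and Cd160 (0.88, exact p = 0.0476) were higher. Btla was lower there (-1.01, exact p = 0.0476). Between 5-FU and Cisplatin 4 members differed, where 50.1% of genes passed: Havcr2 (-1.82, exact p = 0.00794), Btla (-1.80, exact p = 0.00794), Cd244a (-1.44, exact p = 0.0159) and Tigit (-1.10, exact p = 0.0238) were lower under 5-FU. Against Ptprc, where 12.6% of genes passed, Havcr2 (-0.60, exact p = 0.0159) and Btla (-0.57, exact p = 0.0238) stayed lower, and Tox (1.42, exact p = 0.00794), Lag3 (0.99, exact p = 0.0238) and Ctla4 (0.50, exact p = 0.0238) were higher. With limma 0 of the 4 and 0% of all genes passed. Between the combinations it was Havcr2 alone (-1.79, exact p = 0.0317), where 1.86% of genes passed, and without 5-FU+ICB replicate 5 and Cisplatin+ICB replicate 1 its difference was -1.12 (exact p = 0.114). With limma over all genes Havcr2 did not pass there either (adjusted p = 0.136). Against Ptprc, with all tumors, Havcr2 was lower (-0.74, exact p = 0.00794), where 3.52% of genes passed.

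**Figure D3:**
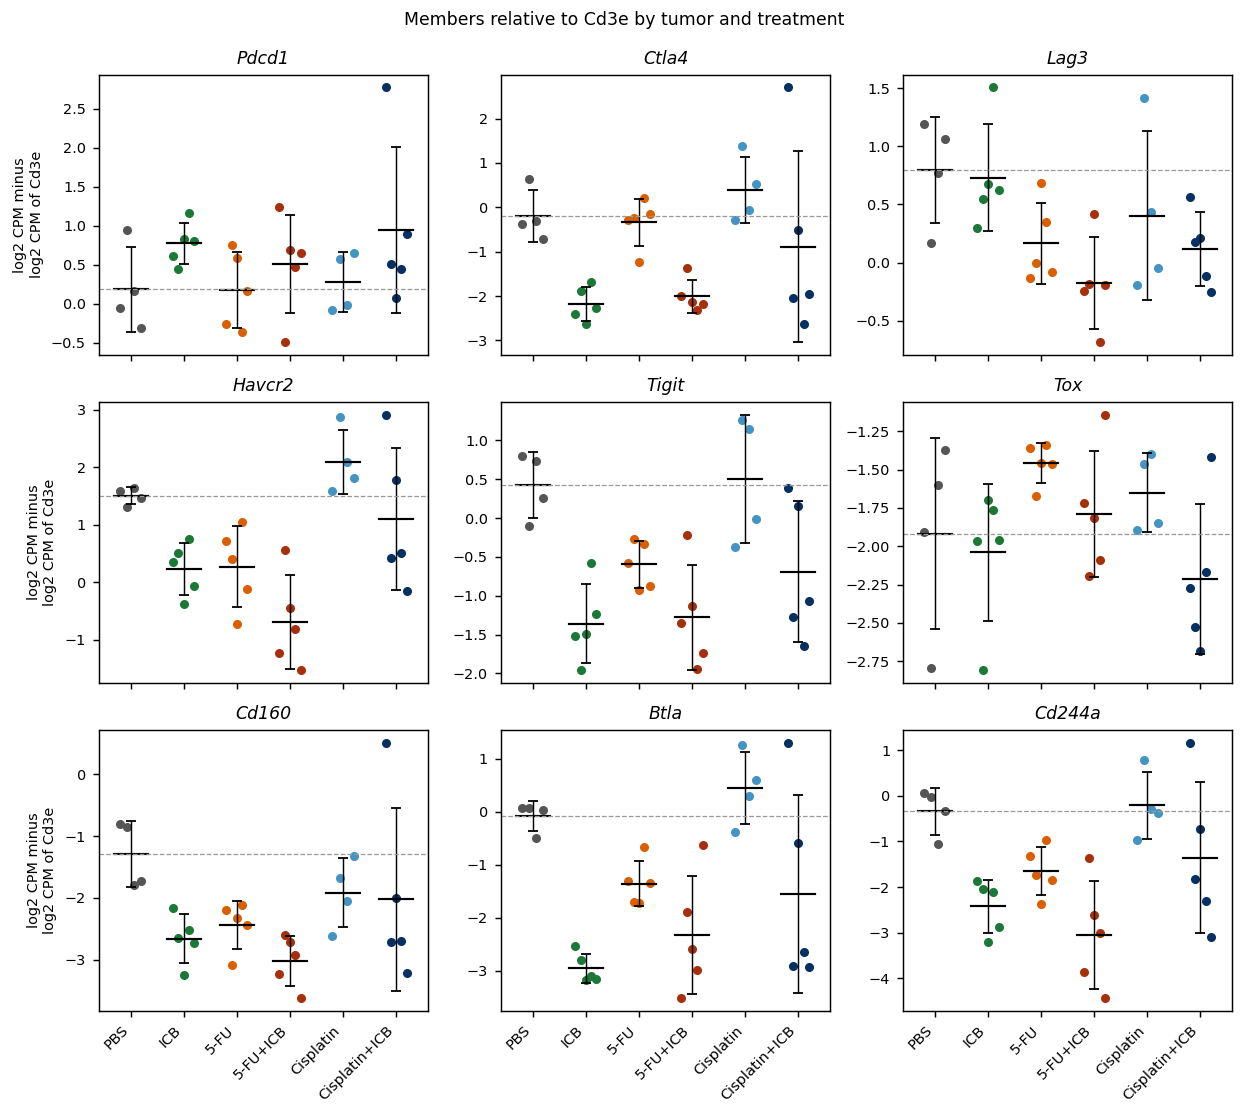
Log2 CPM of each member minus log2 CPM of Cd3e by treatment, with 1 point per tumor, bars at the mean and 1 SD, and a dashed line at the PBS mean. Mean Ctla4 minus its PBS mean was -1.98 with ICB, -1.81 with 5-FU+ICB and -0.15 with 5-FU, and Cisplatin+ICB replicate 1 lies above the other 4 tumors of its group for every member but Tox.

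Within the treatment groups, subtracting Cd3e lowered the spread of some members and not of others. The pooled within-group SD of Cd3e itself was 1.31. A member that moves with Cd3e over a narrower range can therefore keep or gain spread, and these SDs do not measure how closely a member ran with Cd3e. The pooled within-group SD of log2 CPM was 1.46 for Tox and fell by subtraction of Cd3e to 0.42. For Lag3 it went from 1.21 to 0.45 and for Pdcd1 from 1.44 to 0.63. For Havcr2 (0.60 before and 0.75 after), Cd244a (0.55 and 0.99), Btla (0.98 and 0.99) and Ctla4 (0.84 and 1.04) it did not fall. Without Cisplatin+ICB replicate 1, however, it fell from 1.01 to 0.74 for Btla and to 0.60 for Ctla4, and the SD after subtraction was 0.46 for Cd160, whose value with all tumors was 0.75, while Havcr2 (0.63 after) and Cd244a (0.80) still did not fall. Subtracting Ptprc brought these 4 down, Havcr2 to 0.28, Cd244a to 0.42, Ctla4 to 0.55 and Btla to 0.57.

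**Figure D4:**
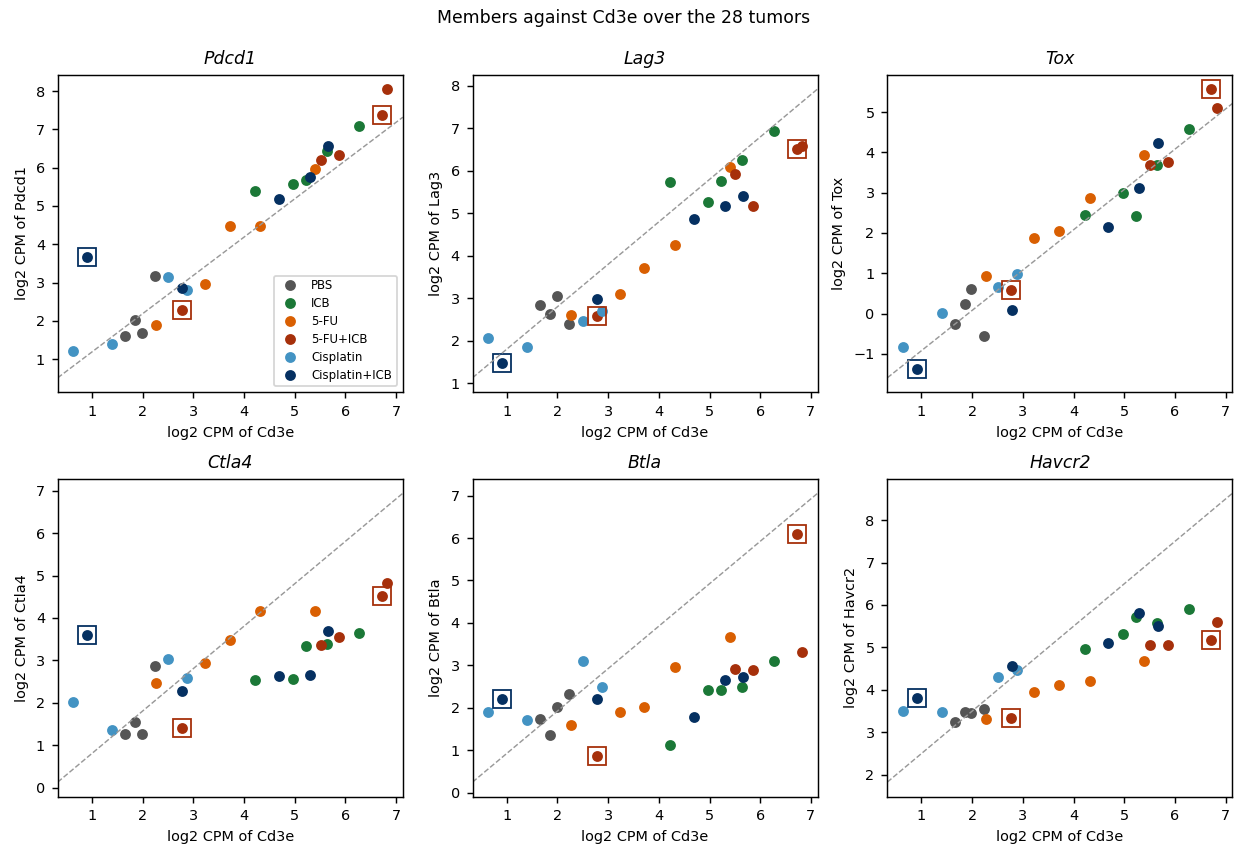
Log2 CPM of 6 members against log2 CPM of Cd3e, 1 point per tumor, with a dashed line of slope 1 through the PBS mean. Open squares mark Cisplatin+ICB replicate 1 and 5-FU+ICB replicates 2 and 5, and the points of Tox follow the line while those of Ctla4, Btla and Havcr2 flatten below it in tumors rich in Cd3e.

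The genes with the most similar levels over the 28 tumors, among 14061 genes, were in part those of T cells. For Pdcd1 they were Klrc1 (Pearson r = 0.98), Nkg7 (0.98) and Cd3d (0.98), genes of cytotoxic lymphocytes and of the T cell receptor complex, and for Tox they were Ikzf3 (0.98), Cd28 (0.98) and Gimap1 (0.98). Ctla4 ran closest with P2ry10 (0.95), Cd83 (0.93) and Tnfrsf4 (0.92), the gene for the costimulatory receptor OX40. Havcr2 ran closest with Ncf1 (0.97), a subunit of the phagocyte oxidase, and with Pygl (0.97) and Gpr35 (0.97), and Lag3 with Psap (0.98), H2-Q6 (0.97) and Il2rg (0.97). For Tigit they were Rac2 (0.95), Tox (0.95) and Itpripl1 (0.95), and for Cd160 Ctsw (0.96), Aif1 (0.96) and Klrc1 (0.96). Btla ran closest with the immunoglobulin gene Iglc3 (0.92), Kmo (0.91) and Cxcr5 (0.91), and Cd244a with Gm21188 (0.94) and Pilrb2 (0.93). These values describe the ranking and share the treatment groups and the tumors that stood apart.

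Lists of genes around the members were counted in the same fits, in which 37.8% of all genes were called under ICB, 23% under 5-FU, 40.7% under 5-FU+ICB and 6.1% under Cisplatin+ICB against PBS. The Cisplatin+ICB counts rest on single tumors. Without PBS replicate 1, 3 or 4 they were 0 for every list, and without Cisplatin+ICB replicate 1, where 35.3% of all genes were called, they were 6 for the ligands, 12 for the exhaustion programme, 5 for progenitor and memory genes, 6 for costimulatory receptors, 7 for effector genes and 4 for signalling partners. Leaving out single tumors, the 5-FU counts went down to 1 for the ligands, 4 for the exhaustion programme, 0 for progenitor and memory genes, 1 for costimulatory receptors, 2 for effector genes and 0 for signalling partners. Without PBS replicate 1 all 6 of these counts were at those lowest values, where 10.5% of all genes were called, and without 5-FU replicate 3 (16.5%) 4 of them were.

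Several ligands of the receptors rose as well. Of 10 ligand genes tested (Fgl1, a LAG-3 ligand, did not pass the filter on low counts), 6 were called higher under ICB, 5 under 5-FU, 7 under 5-FU+ICB, 4 under Cisplatin+ICB and 0 under Cisplatin by edgeR, and 0 were called lower. Their median log2 fold change was 1.67 under ICB, 0.96 under 5-FU and 1.83 under 5-FU+ICB, against -0.03, -0.01 and -0.04 over all genes. Pdcd1lg2, which encodes PD-L2, had the largest log2 fold change under ICB, 5.40 (SE 0.84, adjusted p = 0.000361), and Cd274, which encodes PD-L1, the antibody's target, stood at 3.99 (SE 0.35, adjusted p = 6.16e-06). Under 5-FU alone Cd274 rose by 2.05 (SE 0.32, adjusted p = 0.00161) and the CTLA-4 ligand Cd86 by 1.55 (SE 0.50, adjusted p = 0.0304). Under Cisplatin+ICB Pdcd1lg2 rose by 3.96 (adjusted p = 0.0146) and Cd274 by 3.25 (adjusted p = 0.0116). The Cd86 call under 5-FU held in 4 of 9 fits that left out 1 tumor. Cd274 was the 1 ligand called for the interaction of 5-FU and ICB, at -2.62 (SE 0.43, adjusted p = 0.0471), a value below the sum of the separate log2 changes. This edgeR call held in 6 of 19 fits that left out 1 tumor, in which the value was -2.85 to -2.37 and the adjusted p 0.000974 to 0.153, and it was lost with all 6 groups in 1 fit (adjusted p = 0.337) and with the replicate number as a block (adjusted p = 0.0912). DESeq2 called it (adjusted p = 4.65e-06).

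Other genes of the exhaustion programme showed 13 of 15 called higher under ICB, 9 under 5-FU, 13 under 5-FU+ICB, 5 under Cisplatin+ICB and 0 under Cisplatin. The list's median was 1.85 under ICB, 1.37 under 5-FU and 1.91 under 5-FU+ICB. Tnfrsf9 stands in this list and in that of the costimulatory receptors. Summed macrophage markers also differed, with a median of 1163 CPM in PBS tumors and 4044 CPM under ICB. The part of cells other than T cells in these values was not tested. Under ICB the largest were the ectoenzyme gene Cd38 (4.05, SE 0.67, adjusted p = 0.000461), the chemokine receptor gene Cxcr6 (3.59, adjusted p = 0.00562) and the transcription factor gene Irf4 (3.03, adjusted p = 0.00309). Under 5-FU the leading genes were others: the nuclear receptors Nr4a3 (3.90, SE 0.77, adjusted p = 0.00466) and Nr4a1 (3.24, SE 0.64, adjusted p = 0.00462), which T cell receptor signalling and other stimuli induce within hours, and the TOX relative Tox2 (3.38, SE 1.07, adjusted p = 0.0291). Nr4a1 was also higher with 5-FU than with Cisplatin, by 3.35 (SE 0.62, adjusted p = 0.0190), the 1 gene of the list called there, and in 5 of 9 fits that left out 1 tumor. Between 5-FU+ICB and ICB 0 of 15 were called by edgeR, with Tox2 at 3.32 (SE 0.85, unadjusted p = 0.000994, adjusted p = 0.112), and at 1.56 (adjusted p = 0.387) without 5-FU+ICB replicate 5.

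Genes of progenitor and memory T cells were called higher in 4 of 10 cases under ICB, 2 under 5-FU, 8 under 5-FU+ICB, 2 under Cisplatin+ICB and 0 under Cisplatin, with medians of 1.58 under ICB, 1.31 under 5-FU and 2.79 under 5-FU+ICB. The counts under ICB and 5-FU are near what the share of all genes called gives, 37.8% and 23%, and that share was 40.7% under 5-FU+ICB. Il7r, the interleukin-7 receptor, and Slamf6 were among them under ICB (3.08, adjusted p = 0.00126, and 2.44, adjusted p = 0.00252) and under 5-FU (1.96, adjusted p = 0.0224, and 1.70, adjusted p = 0.0273), where leaving out 1 tumor kept the call of Il7r in 5 and that of Slamf6 in 4 of 9 fits. With 5-FU+ICB Cxcr5, a receptor of B cells and follicular T cells, led at 5.30 (SE 1.37, adjusted p = 0.00587) ahead of Lef1 (3.38, adjusted p = 0.00160). The median of 4 B cell markers stood at 5.84 there. Without replicate 5 it was 2.75, Cxcr5 was at 2.14 (SE 0.76, adjusted p = 0.0333) and Lef1 at 2.33 (adjusted p = 0.00241), and 8 genes of the list were called. The part of B cell RNA in the Cxcr5 values was not tested. Between 5-FU+ICB and ICB all 10 values were above 0 with 0 called by edgeR, Tcf7 being at 1.34 (SE 0.38, unadjusted p = 0.00268, adjusted p = 0.163). Without replicate 5 Tcf7 was at 0.58 (adjusted p = 0.386), and the list's median went from 0.90 to 0.36.

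Costimulatory receptors rose in 6 of 7 cases under ICB, 3 under 5-FU, 7 under 5-FU+ICB, 3 under Cisplatin+ICB and 0 under Cisplatin, with a median of 2.55 under ICB. Cd28, whose ligands CTLA-4 shares, rose by 3.73 (SE 0.84, adjusted p = 0.00264) under ICB, where Ctla4 was at 1.26, by 2.89 (adjusted p = 0.0176) under 5-FU and by 4.68 (adjusted p = 0.00110) under 5-FU+ICB. Icos rose by 2.72 (adjusted p = 0.00334) under ICB and 2.53 (adjusted p = 0.0113) under 5-FU. The effector list, without Il2, which did not pass the filter, had 7 of 7 tested genes called higher under ICB, 5 under 5-FU, 7 under 5-FU+ICB, 6 under Cisplatin+ICB and 0 under Cisplatin, with a median of 3.36 under ICB. Ifng, the gene for interferon gamma, rose by 5.26 (SE 0.57, adjusted p = 2.44e-05) under ICB, by 2.69 (adjusted p = 0.00421) under 5-FU and by 4.34 (adjusted p = 0.0116) under Cisplatin+ICB, and Prf1, perforin, by 3.61 (adjusted p = 6.79e-05) under ICB. Gzmb, granzyme B, was the 1 gene of these lists called between 5-FU+ICB and 5-FU, at 1.62 (SE 0.25, adjusted p = 0.0498). Without 5-FU+ICB replicate 5 Gzmb was at 1.57 (adjusted p = 0.0630). The call held in 3 of 10 fits that left out 1 tumor, with values of 1.49 to 1.77, and not with the replicate block (adjusted p = 0.120). DESeq2 called it (adjusted p = 2.96e-06), with 4 effector genes, 5 of the exhaustion programme, 2 ligands, 2 costimulatory receptors and 1 progenitor gene in all. Without 5-FU+ICB replicate 2, where 10.9% of all genes were called, edgeR called 5 effector genes, 9 of the exhaustion programme, 6 ligands, 5 progenitor genes, 4 costimulatory receptors and 4 signalling partners in this comparison. Without 5-FU replicate 3 (3.58% of all genes) these counts were 4, 5, 2, 1, 2 and 2.

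Genes for proteins that carry the receptors' signals had smaller fold changes. Of 8 genes, 5 were called higher under ICB, 2 under 5-FU, 5 under 5-FU+ICB, 0 under Cisplatin+ICB and 0 under Cisplatin by edgeR, with a median of 0.97 under ICB. The count under 5-FU is near the share of all genes called there. Inpp5d, the phosphatase SHIP1, rose by 1.97 (SE 0.36, adjusted p = 0.000878) under ICB, Sh2d1a, the adaptor SAP that binds the CD244 tail, by 1.83 (adjusted p = 0.0475, a call kept in 1 of 9 fits that left out 1 tumor), and Ptpn6, the phosphatase SHP-1, by 1.21 (adjusted p = 0.00110). Under 5-FU Inpp5d was at 1.15 (adjusted p = 0.0260) and the kinase gene Fyn at 0.63 (adjusted p = 0.0431). Ptprc, which all leukocytes express, rose by 2.00 under ICB, and the part of leukocyte RNA in these values was not tested.

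Some reads could not be assigned with certainty to these genes alone. In the GENCODE annotation Tox shares 260 exonic bases with the antisense gene Gm11802, Cd160 shares 68 with Pdzk1 and Cd3e shares 135 with Gm48719, all on the opposite strand. Whether the libraries kept strand is not given in the sources used here.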

How the data were processed

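RNA of 28 whole tumors was sequenced as single-end reads. The authors demultiplexed with bcl2fastq 2.20.0.422, quantified transcripts with kallisto 0.46.0 against GRCm38 and summed them to genes with tximport, and they deposited estimated counts, not normalized, in 2 matrices that share the same 9 PBS and ICB tumors. Of the deposited values, 23.7% were not whole, and all were rounded. Rows were matched by gene symbol. In R 4.3.3, genes were filtered with filterByExpr, scaled by TMM and tested with the quasi-likelihood test of edgeR 4.0.16 on all groups of a matrix. Comparisons between the chemotherapies used both matrices joined. Log2 CPM used a prior count of 2, and the 3-count floors cover counting error only. The SEs of log2 fold changes come from the quasi-likelihood fit and include the spread between tumors. Levels relative to Cd3e were compared by exact permutation of tumors. The median of the tumors' total counts was 28797305, and no 2 tumors of a group held the same values. Replicates are tumors of separate mice.

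Alternatives were DESeq2 1.42.0, limma 3.58.1, other scaling, filters and prior counts, other reference genes, a replicate block and leaving out each tumor. Called genes were named by size, at most 3 per list and comparison, or the 2 with the smallest p where none was called, and all 9 members were named. Some genes that these rules would name are not reported here. The members and lists were chosen with earlier results of these data known. On simulated counts for ICB against PBS over 17916 genes, with 200 changed by 2 on the log2 scale, edgeR recovered 83% with 2.35% false calls, and DESeq2 92% with 15.2%.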

Additional observations from a re-analysis of the deposited data

Results flagged for a closer look

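In 5 groups of 4 or 5 tumors, 1 tumor lay far from the rest for a member, by Dixon's criterion at the 95% level, among 114 groups examined. Chance alone gives about 5% of groups. Havcr2 of 5-FU+ICB replicate 2 was at a log2 CPM of 3.33, with the other 4 tumors at 5.05 to 5.59, and Cd160 of the same tumor was at 0.17, with the others at 2.79 to 3.59. This is the tumor that lay near the PBS tumors throughout. Tigit of Cisplatin replicate 2 was at a log2 CPM of 1.90, with the others at 2.49 to 2.55. Relative to Cd3e, Tox of ICB replicate 2 was at -2.81, with the others at -1.97 to -1.70, and Btla of PBS replicate 3 was at -0.49, with the others at 0.04 to 0.08.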

How the results depend on the processing

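With DESeq2, 4 members were called for 5-FU against PBS (13.7% of all genes with counts), 7 for Cisplatin+ICB against PBS (6.09%), 5 for Cisplatin+ICB against Cisplatin (2.21%), and 1 each for 5-FU+ICB against 5-FU (1.52%), 5-FU against Cisplatin (1.81%) and 5-FU+ICB against Cisplatin+ICB (4.42%). With all 6 groups in 1 fit, 0 were called for 5-FU against PBS (4.45% of all genes), and with the compared groups alone 0 were called for Cisplatin+ICB against PBS (0%). The replicate numbers did not pair the tumors: deviations of same-numbered tumors correlated at a median of -0.02 in the 5-FU matrix (27 pairs) and -0.09 in the cisplatin matrix (25 pairs). With the replicate block, 1 member was called for 5-FU against PBS (18.6% of all genes), 0 for Cisplatin+ICB against PBS (0.533%), 7 for ICB against PBS (33.7%) and 7 for 5-FU+ICB against PBS (35.8%). Leaving out 1 tumor at a time gave 5 to 8 called members for ICB (28.4% to 39.8% of all genes), 0 to 4 for 5-FU (7.87% to 25.9%), 7 to 9 for 5-FU+ICB (30.6% to 48.8%) and 0 to 7 for Cisplatin+ICB against PBS (0% to 35.3%), 0 to 4 for 5-FU+ICB against 5-FU (0% to 10.9%) and 0 to 6 for Cisplatin+ICB against Cisplatin (0% to 11.9%). Over tumors of the compared groups it gave 0 for 5-FU against Cisplatin (0.00528% to 0.417%) and 0 to 1 between the combinations (0.00541% to 11.6%). The rest gave 0. Without Cisplatin+ICB replicate 1, alone or with 5-FU+ICB replicate 5 (chosen after seeing the data), 1 member, Lag3, was called between 5-FU and Cisplatin (6.64% and 8.12% of all genes).

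Relative counts depended on the reference and the test. With Ptprc in place of Cd3e, 2 members differed for 5-FU against PBS (46.5% of all genes), 4 for 5-FU+ICB against PBS (67.1%), 1 for Cisplatin+ICB against PBS (40.1%), 3 for 5-FU+ICB against ICB (5.6%), 1 for 5-FU+ICB against 5-FU (4.77%) and 3 for Cisplatin+ICB against Cisplatin (19.4%). Havcr2 was the 1 member that differed between the combinations (3.52%). Among members that had passed relative to Cd3e, directions turned for Havcr2 (0.0987) and Cd160 (9e-04) under ICB against PBS, for Lag3 (0.73) and Tigit (0.0075) under 5-FU+ICB against PBS, for Cd160 (0.22) between 5-FU+ICB and 5-FU, and for Tigit (0.13) between 5-FU and Cisplatin. Some that had not passed turned as well, among them Lag3 (1.30) and Tox (1.25) under ICB against PBS. With the mean of 3 CD3 genes, 1 member differed for Cisplatin+ICB against PBS (29.6% of all genes) and 1 against Cisplatin (23%). With limma and adjusted p-values, 0 members passed for 5-FU against PBS, 5-FU+ICB against ICB, Cisplatin+ICB against ICB, 5-FU+ICB against 5-FU, 5-FU against Cisplatin and 5-FU+ICB against Cisplatin+ICB, where at most 0.0162% of all genes did, so that these counts are no result about the members. With the exact test the last was also 0 without 5-FU+ICB replicate 5 and Cisplatin+ICB replicate 1. Leaving out 1 tumor gave 6 to 7 members for ICB (89.6% to 93.4% of all genes), 3 to 5 for 5-FU (20.9% to 73.1%), 0 to 2 for Cisplatin (0.259% to 1.75%), 6 to 7 for 5-FU+ICB (55.7% to 94.3%) and 0 to 2 for Cisplatin+ICB against PBS (1.2% to 61.1%), 1 to 2 (0.983% to 15.6%) and 0 to 1 (0.805% to 6.99%) for the combinations with 5-FU and cisplatin against ICB, 1 to 5 for 5-FU+ICB against 5-FU (1.91% to 86.9%), 0 to 2 for Cisplatin+ICB against Cisplatin (0.632% to 22.2%), 3 to 5 for 5-FU against Cisplatin (5.31% to 67.4%) and 0 to 3 between the combinations (0.562% to 41.5%). The causes were not tested. With 1 tumor fewer, the smallest p the exact test can give rises where groups of 5 and 4 are compared. It stays the same where the compared groups are of equal size. At the depth of these libraries 3 counts were at most 0.159 CPM, below the lowest level of any member, 0.318 CPM.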
